A study of Mus musculus with 6 samples.

Results

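The CXC chemokines are small secreted proteins that attract leukocytes, and 9 mouse genes of the family were followed here through macrophages of Cd28 knockout and wild-type mice. The genes were Cxcl1, Cxcl2, Cxcl3, Cxcl9, Cxcl10, Cxcl13, Cxcl14, Cxcl16 and Pf4 (also called Cxcl4), taken by symbol and not by their values, out of 14574 genes listed in any library. Of the 9, 7 were listed in all 6 libraries, Cxcl3 was listed in 5, and Cxcl13 was listed in none. The Cd28 KO group had 3 libraries and the WT group, C57BL/6J, had 3. Both groups were bone marrow-derived macrophages, grown for 7 days from femoral marrow of mice aged 6 to 10 weeks. The medium was DMEM with 10% FCS, 2-mercaptoethanol and 25 ng/ml of human M-CSF, the growth factor that drives macrophage differentiation, which was added again every 2 days, and nothing further was given. The labels give neither the targeted exons of Cd28, nor the sex of the mice, nor whether each replicate number was a separate animal. The p-values below therefore cover the variation seen among these samples alone, part of which may be technical.

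CXC chemokines are named for a single residue that separates their first pair of cysteines, and they act through G protein-coupled receptors. Members with the glutamate-leucine-arginine (ELR) motif, here Cxcl1, Cxcl2 and Cxcl3, bind Cxcr2 and draw neutrophils, and macrophages make them quickly when NF-kB is activated. Cxcl9 and Cxcl10 lack that motif, are induced by interferons and bind Cxcr3 on activated T cells and natural killer cells. Cxcl13 guides B cells through Cxcr5, Cxcl16 is a membrane-bound ligand of Cxcr6 that also acts as a scavenger receptor, Cxcl14 is a largely homeostatic chemokine, and Pf4 is stored in platelet granules and is also made by macrophages.

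Each library listed 12768 to 13327 genes, and the values were FPKM, that is fragments per kilobase of transcript per 1000000 mapped fragments, so levels can be compared between genes per unit length. No source used here gives the number of fragments behind a value. Of the 9 macrophage markers, all 9 passed the filter used below, with a summed level of 15478 to 17601 FPKM in Cd28 KO and 14893 to 15419 FPKM in WT. Most of that sum came from 1 gene, so it does not stand for the list. By gene, 6 of the 9 differences were positive and 3 negative in the fit used below. Their median log2 difference was 0.03, and 0 were called. Cd28 itself was listed in all libraries, at 25.7, 24.2 and 26.9 FPKM in Cd28 KO and 38.2, 30.1 and 51.1 FPKM in WT (exact two-sided permutation p = 0.1, the smallest that 3 against 3 allows). The difference of means was -14.2 FPKM, and -8.56 FPKM without WT replicate 3. Since the targeted exons are unknown, a gene-level value checks the genotype labels only in part. Replicate 3 set itself apart from replicates 1 and 2 in both genotypes. On principal component 1, which held 73.8% of the variance over tested genes, it lay at 34.8 in Cd28 KO and 36.1 in WT, against -18.2 to -17.4 for replicates 1 and 2. The Y-linked gene Eif2s3y was listed in the replicate 3 libraries only, at 39.1 FPKM in Cd28 KO and 31.8 FPKM in WT. Ddx3y (10.6 FPKM in Cd28 KO and 14.4 FPKM in WT), Kdm5d and Uty were also listed there only. The replicate 3 libraries thus held RNA of cells with a Y chromosome, and no Y-linked gene was listed in replicates 1 and 2. This difference runs along the replicate numbers in both genotypes, and its part in the replicate 3 values was not tested. Results are therefore given for each replicate number apart as well as together.

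None of the CXC chemokines was called different between Cd28 KO and WT macrophages. Calls were made with limma on log2(FPKM + 1) over the 10172 genes whose mean reached 1 FPKM, with p-values adjusted by the Benjamini-Hochberg method and a threshold of 0.05. The filter kept 6 of the 9 members, and 0 of the 6 were called, beside 0.0197% of all tested genes (2 genes), and 0 of the 6 had an unadjusted limma p below 0.05, beside 2.49% of all tested genes. Cxcl1 and Cxcl3 passed the filter only through replicate 3, as 4 members have a mean of at least 1 FPKM without those libraries. With the replicate number as a block, 0 of the 6 were called by limma, beside 0.177% of all tested genes (18 genes). Cd28 itself was not called either, at a log2 difference of -0.59 ± 0.19 (SE). Its limma adjusted p was 0.9995 (unadjusted 0.017) without the block and 0.18 with it. A missing call in this fit is therefore no sign of equal levels. The groups overlapped for all 6 tested members, while 3.84% of tested genes had all their Cd28 KO values above the WT values and 2.87% had them all below. Over all 9 members the median difference, Cd28 KO minus WT on the log2(FPKM + 1) scale, was 0.00, the value of Cxcl13, which is at 0 in every library. It was 0.14 over the 6 tested members, and over all 14574 listed genes it was -0.000204. Leaving out 1 library moved the median over 9 members between -0.054 and 0.48, the higher end without WT replicate 3. By replicate number the median over the 9 members was 0.11 in replicate 1, 0.00 in replicate 2 and 0.02 in replicate 3.

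**Figure D1:**
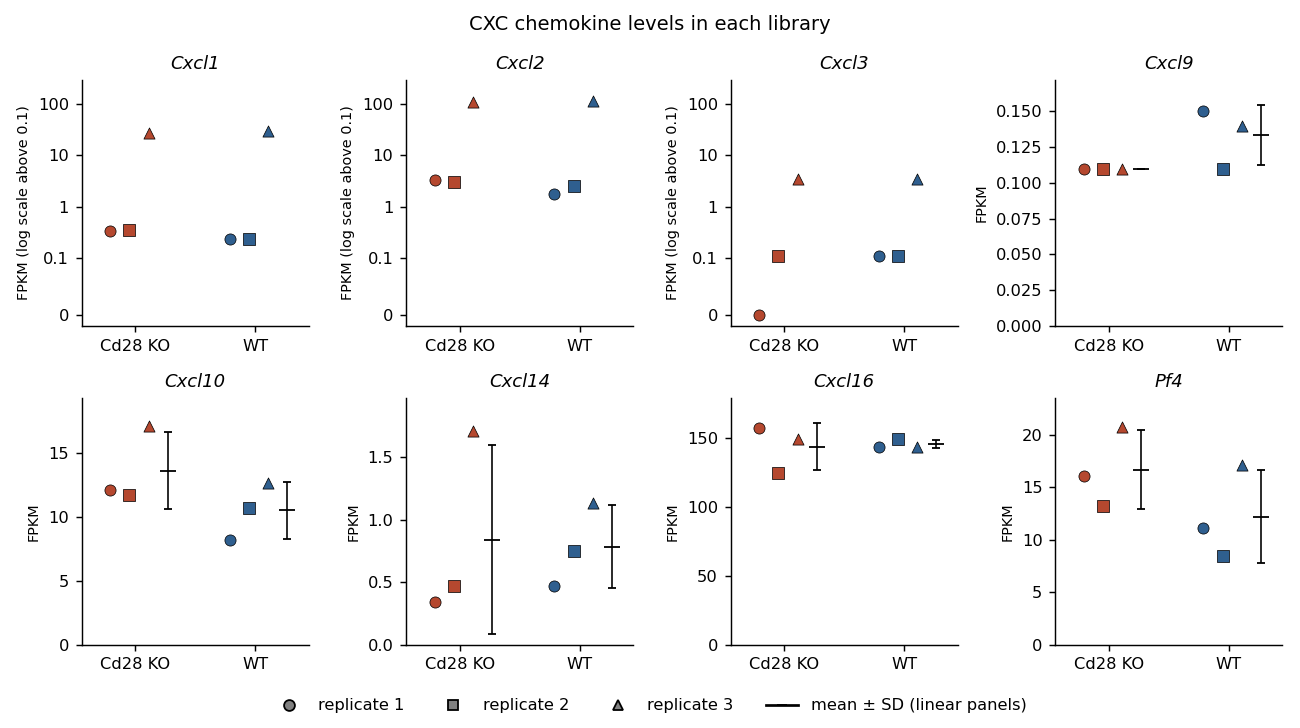
Level of each of the 8 listed CXC chemokines in FPKM, with Cd28 KO left of WT, 1 point per library, the shape giving the replicate number and bars the mean ± SD (n = 3). Cxcl1, Cxcl2 and Cxcl3 are drawn on a log scale above 0.1 FPKM without bars. In those panels the replicate 3 point lies far above replicates 1 and 2 in both genotypes, while Cxcl16 lies between 124 and 157 FPKM in every library.

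The ELR chemokines were the members that varied most, and they varied by replicate number. Cxcl1 (Entrez 14825, chromosome 5, 90891245 to 90893121, GRCm38) stood at 0.33, 0.35 and 27.9 FPKM in Cd28 KO replicates 1, 2 and 3, and at 0.23, 0.23 and 30.5 FPKM in the same WT replicates. Its values in both replicate 3 libraries were high, those in the other 4 were below 1 FPKM, and the genotypes overlapped. Cxcl2 (Entrez 20310, chromosome 5, 90903899 to 90905938), the closest relative of Cxcl1 in function, stood at 3.33, 2.97 and 109 FPKM in Cd28 KO and at 1.74, 2.52 and 116 FPKM in WT. It was thus the higher of the pair in every library, with the same split between replicate 3 and the rest. Cxcl3 (Entrez 330122, chromosome 5, 90786101 to 90788093), a further ligand of Cxcr2, was listed at 0, 0.11 and 3.52 FPKM in Cd28 KO and at 0.11, 0.11 and 3.47 FPKM in WT. It was the lowest of the ELR members in each library, it followed the same split, and the genotypes overlapped.

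Between genotypes, no difference in the ELR chemokines stood out from this spread over all 6 libraries. The log2 difference of Cxcl1 was 0.04 ± 1.61 (SE), that of Cxcl2 was 0.25 ± 1.76 and that of Cxcl3 was -0.04 ± 0.74, each at a limma adjusted p of 0.9995. The 95% intervals were wide, from -3.75 to 3.83 for Cxcl1, from -3.90 to 4.39 for Cxcl2 and from -1.78 to 1.69 for Cxcl3. With the replicate block they narrowed to -0.26 to 0.34, -0.09 to 0.58 and -0.36 to 0.27. Within replicates 1 and 2, Cxcl2 in Cd28 KO stood at 1.91 and 1.18 times the WT value and Cxcl1 at 1.43 and 1.52 times, whereas within replicate 3 the ratios were 0.936 for Cxcl2 and 0.912 for Cxcl1. Without both replicate 3 libraries the log2 difference of Cxcl2 was 0.42, at a limma adjusted p of 0.28 (unadjusted 0.021). In that run 1330 of the 10155 tested genes had an unadjusted limma p below 0.05. The sign of the Cxcl1 and Cxcl2 differences over all libraries turned when Cd28 KO replicate 3 was left out, to -1.44 and -1.33, and also without WT replicate 1 (-0.74 and -0.72) or WT replicate 2 (-0.74 and -0.54). That of Cxcl3 turned when replicate 1 (0.34) or replicate 2 (0.27) of Cd28 KO was dropped. It also turned without WT replicate 3 (0.63), where its mean falls below the filter and no test was made. Leaving out 1 library gives replicate 3 unequal weight in the genotypes, so its high ELR values set the sign in these runs. The turns therefore say nothing about genotype.

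Set against the other libraries of the same genotype, replicate 3 held 81.9 times the mean Cxcl1 level of replicates 1 and 2 in Cd28 KO, and 133 times in WT. Those means were 0.34 FPKM in Cd28 KO and 0.23 FPKM in WT, with the number of fragments unknown. The size of the Cxcl1 ratios, and the gap between them, is therefore uncertain. For Cxcl2 the ratios were 34.5 in Cd28 KO and 54.5 in WT. On the log2(FPKM + 1) scale, replicate 3 stood above the mean of replicates 1 and 2 by 4.43 for Cxcl1, 4.72 for Cxcl2 and 2.10 for Cxcl3 in Cd28 KO, and by 4.68, 5.24 and 2.01 in WT. Averaged over the genotypes, Cxcl2 ranked 6, Cxcl1 ranked 9 and Cxcl3 ranked 76 by this difference among the 10172 tested genes. All 3 were at least 2-fold higher in replicate 3 of both genotypes, as were 2.32% of all tested genes. Cxcl1 and Cxcl3 passed the filter only through replicate 3, so a high level there was a condition of their being ranked and counted. Each genotype has 1 such library and the libraries were singled out after their values were seen, so these figures are a description without a test. No ratio is given for Cxcl3, because 1 of the libraries below the line is listed at 0 and the others hold values near the lowest that the files carry for this gene.

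**Figure D2:**
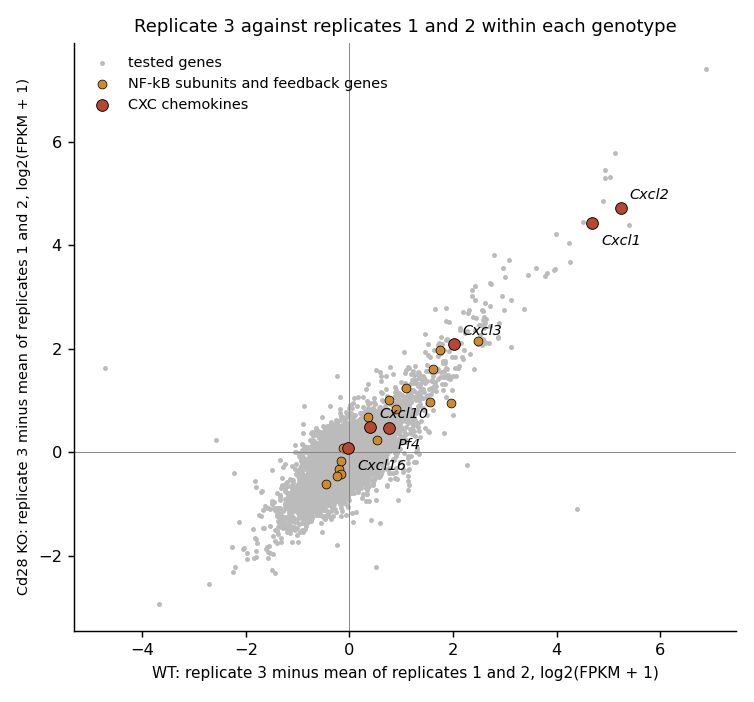
For every tested gene, the level in replicate 3 minus the mean of replicates 1 and 2 on the log2(FPKM + 1) scale, in Cd28 KO (vertical axis) and in WT (horizontal axis), with CXC chemokines and NF-kB genes marked. Cxcl1 and Cxcl2 lie above 4 on both axes and Cxcl3 near 2, while Cxcl10, Cxcl16 and Pf4 lie below 1.

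The start regions of these genes are shown because the ELR members moved together between libraries. The windows come from RefSeq, build GRCm38.p6, where 8 of the 9 members matched. Each line runs 5′ to 3′ on the plus strand, from 100 bases before the annotated start to 20 bases after it, and capitals mark matches to an NF-kB type motif, GGGNNNTTCC, on either strand, with overlapping matches merged.
Cxcl1, chr5:90891145-90891264: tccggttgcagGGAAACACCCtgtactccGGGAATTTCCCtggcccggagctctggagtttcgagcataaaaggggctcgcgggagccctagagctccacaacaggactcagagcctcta
Cxcl2, chr5:90903799-90903918: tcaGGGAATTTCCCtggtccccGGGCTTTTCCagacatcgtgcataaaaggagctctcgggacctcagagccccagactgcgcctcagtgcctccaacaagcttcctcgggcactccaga
Cxcl3, chr5:90786001-90786120: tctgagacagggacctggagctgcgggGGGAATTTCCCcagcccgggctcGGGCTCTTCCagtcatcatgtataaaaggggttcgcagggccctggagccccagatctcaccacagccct
All 3 windows held the identical run GGGAATTTCCC, at positions -71 to -61 from the start in Cxcl1, -97 to -87 in Cxcl2 and -73 to -63 in Cxcl3, and a second match beside it. Over all 32851 windows of 300 bases in the same table, 5.56% held at least 1 match to GGGNNNTTCC. No share was worked out for the identical run or for 2 matches in a window. Cxcl10 also held 2 matches, and its replicate 3 level was 1.44 times the mean of replicates 1 and 2 in Cd28 KO and 1.34 times in WT. A match of letters is a description of the sequence and does not show that a factor was bound.

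**Figure D3:**
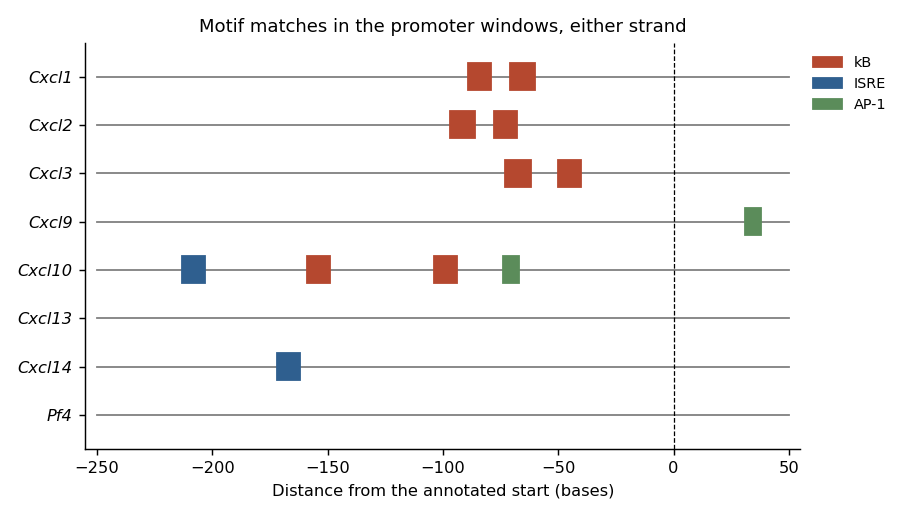
Matches to 3 motifs in the promoter windows of the 8 CXC chemokines with a RefSeq window, by distance in bases from the annotated start (dashed line), from 250 before to 50 after. Cxcl1, Cxcl2, Cxcl3 and Cxcl10 each hold 2 NF-kB type matches, and Pf4 and Cxcl13 hold none of the 3 motifs.

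Cxcl2 and Cxcl3 are similar enough for reads to be shared between them. Of the 25-base words in the annotated Cxcl3 transcripts (GENCODE M21), 5.23% also occur in Cxcl2, and 8.72% of those of Cxcl2 occur in Cxcl3, whereas Cxcl1 shared none with either. The low Cxcl3 level is therefore uncertain, since the estimate divides such reads between genes. Cxcl1 and Cxcl2 lie 10777 bases apart, Cxcl3 lies 103151 bases from Cxcl1 with Cxcl15 between them, and Pf4 lies 12717 bases from Cxcl3. Cxcl5, the ELR ligand beyond Pf4 in the same row of genes, was listed in 1 library at 0.07 FPKM, and Cxcl15 in none.

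The NF-kB list, 16 genes of subunits, feedback and the IkB kinase complex, moved in part with the ELR chemokines across libraries. Its 16 members were all tested, and limma called 0 higher and 0 lower in Cd28 KO, beside 0.0197% of all tested genes called. At an unadjusted limma p below 0.05 there were 0 of 16, beside 2.49% of all tested genes. In the blocked fit there was 1, beside 7.89%. The median log2 difference was -0.04, against -0.003 over all tested genes. On the log2(FPKM + 1) scale 4 of the 16, all feedback genes, were at least 2-fold higher in replicate 3 of both genotypes, as were 2.32% of all tested genes. As plain FPKM ratios the count was 6, with the subunit gene Rel and the feedback gene Nfkbiz added, and the share of all tested genes was 2.88%. The genes described next were, apart from Zfp36 and Nfkb2, named after their values were seen. Nfkbia, which encodes the inhibitor IkBa, stood at 66.8, 62.8 and 258 FPKM in Cd28 KO and 65.0, 74.0 and 234 FPKM in WT. Tnfaip3, which encodes the ubiquitin-editing enzyme A20, stood at 4.42, 4.80 and 23.9 FPKM in Cd28 KO and 4.44, 6.46 and 34.7 FPKM in WT. Zfp36, which encodes a protein that destabilises cytokine mRNAs and was the highest of the list, stood at 150, 149 and 358 FPKM in Cd28 KO and 141, 148 and 310 FPKM in WT. Bcl3, which encodes an atypical IkB protein, reached 42.9 FPKM in Cd28 KO replicate 3 and 42.4 FPKM in WT replicate 3. The part of NF-kB activity in the ELR values was not tested. The 5 subunit genes differed among themselves. Rel stood at 3.29, 3.87 and 7.89 FPKM in Cd28 KO and 2.86, 1.84 and 11.8 FPKM in WT, and Relb at 14.6, 15.5 and 31.6 FPKM in Cd28 KO and 15.7, 16.7 and 28.2 FPKM in WT, so both were highest in replicate 3. Rela stood at 52.1, 58.5 and 49.4 FPKM in Cd28 KO and 57.3, 61.4 and 52.9 FPKM in WT, and Nfkb1 at 34.1, 36.0 and 27.9 FPKM in Cd28 KO and 35.3, 36.1 and 30.9 FPKM in WT, so both were lowest there. Nfkb2, the member of smallest p between genotypes, averaged 23.9 ± 1.03 FPKM in Cd28 KO and 26.2 ± 1.48 FPKM in WT (SD, n = 3 each; limma adjusted p = 0.9995). The kinase complex genes Ikbkb, Ikbkg and Chuk were lower in replicate 3 than in replicates 1 and 2 of both genotypes. On the log2(FPKM + 1) scale they differed by -0.42, -0.61 and -0.45 in Cd28 KO, and by -0.16, -0.46 and -0.23 in WT.

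Neutrophil markers were examined beside the ELR chemokines. Their summed level over 10 markers was 7.45 to 9.70 FPKM in replicate 3 and 3.00 to 6.53 FPKM in replicates 1 and 2. S100a8, the highest, stood at 2.41, 0.63 and 4.44 FPKM in Cd28 KO and 0.94, 2.19 and 3.65 FPKM in WT. S100a9 stood at 2.31, 2.63 and 3.75 FPKM in Cd28 KO and 1.09, 1.53 and 2.33 FPKM in WT, higher in Cd28 KO within each replicate number (log2 difference 0.57 ± 0.23, SE, limma adjusted p = 0.9995). Elane and Ly6g did not exceed 0.12 FPKM, and Retnlg was at 0 in all libraries. The part of such cells in the replicate 3 values was not tested, and in bulk RNA a change in the number of cells of a type and a change in RNA per cell cannot be told apart.

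Of the interferon-induced ligands of Cxcr3, Cxcl10 was expressed and Cxcl9 was barely listed. Cxcl10 (Entrez 15945, chromosome 5, 92346638 to 92348889) stood at 12.1, 11.7 and 17.1 FPKM in Cd28 KO and at 8.19, 10.7 and 12.6 FPKM in WT. It was higher in Cd28 KO within each replicate number, but WT replicate 3 lay above Cd28 KO replicates 1 and 2, so the groups overlapped. Cxcl10 averaged 13.6 ± 3.02 FPKM in Cd28 KO and 10.5 ± 2.23 FPKM in WT (SD, n = 3 each). The log2 difference was 0.34 ± 0.21 (SE), with a 95% interval of -0.14 to 0.83 and a limma adjusted p of 0.9995. With the replicate block the interval was 0.08 to 0.61, at a limma adjusted p of 0.51 (unadjusted 0.017). The difference was 0.18 when Cd28 KO replicate 3 was dropped and 0.19 when WT replicate 1 was. By replicate number, Cd28 KO held 1.48, 1.09 and 1.35 times the WT level, with replicate 2 the smallest. Cxcl10 lies within the span of Art3, which was listed in 1 library at 0.16 FPKM.

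Cxcl9 (Entrez 17329, chromosome 5, 92321331 to 92328079), the other interferon-induced ligand, lies 18558 bases from Cxcl10 and was listed at 0.11, 0.11 and 0.11 FPKM in Cd28 KO and at 0.15, 0.11 and 0.14 FPKM in WT. It fell below the filter, and its difference in mean FPKM gave an exact two-sided permutation p of 0.4 (n = 3 each). Cxcl11, the remaining ligand of Cxcr3, was listed in no library.

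The Cxcl10 window is printed because it carries matches of both kinds, interferon and NF-kB. It spans 250 bases before to 50 bases after the start, 5′ to 3′ on the minus strand, GRCm38.p6, with capitals marking, from left to right, an interferon-stimulated response element of the form GAAANNGAAA, 2 NF-kB type matches and an AP-1 type match, TGANTCA.
Cxcl10, chr5:92348840-92349139: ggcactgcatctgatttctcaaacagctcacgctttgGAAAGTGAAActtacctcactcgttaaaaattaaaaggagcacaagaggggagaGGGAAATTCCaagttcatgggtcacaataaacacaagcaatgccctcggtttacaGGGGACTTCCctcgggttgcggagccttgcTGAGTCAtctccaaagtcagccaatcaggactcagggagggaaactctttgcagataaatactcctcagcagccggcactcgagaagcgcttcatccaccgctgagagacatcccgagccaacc
The interferon motif, at positions -213 to -204 from the start, was found in 3.44% of all windows, and the AP-1 motif in 7.81%. Both strands were searched. Among the other members, the interferon motif occurred in the Cxcl14 window and the AP-1 motif in that of Cxcl9, while the NF-kB type motif was in neither.

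Genes of the interferon pathway upstream of Cxcl10 were not called between genotypes. All 16 were tested, 11 with a positive and 5 with a negative difference, and limma called 0 higher and 0 lower, with 1 of 16 at an unadjusted p below 0.05, beside 2.49% of all tested genes, and a median log2 difference of 0.07. In the blocked fit 1 of 16 had an unadjusted limma p below 0.05, beside 7.89% of all tested genes. Irf7, a transcription factor that is itself interferon-induced, stood at 194, 208 and 258 FPKM in Cd28 KO and at 140, 126 and 205 FPKM in WT, higher in Cd28 KO within each replicate number, with a log2 difference of 0.51 ± 0.20 (SE) and limma adjusted p values of 0.9995 without and 0.18 with the replicate block. Irf9, a subunit of the type I interferon response factor, stood at 48.2, 51.5 and 50.5 FPKM in Cd28 KO, all above the WT values of 41.8, 45.2 and 47.5 FPKM. Ifnar1, a chain of the type I interferon receptor, stood at 18.4, 18.2 and 17.7 FPKM in Cd28 KO, all below the 20.4, 20.4 and 23.2 FPKM of WT. Irf9 and Ifnar1 were the genes of the list without overlap, 1 higher and 1 lower of 16, where the shares of all tested genes were 3.84% higher and 2.87% lower. Neither was called (limma adjusted p = 0.9995 each). Socs3 and Socs1, feedback inhibitors of cytokine signalling, followed the ELR chemokines across replicates, with 29.7 and 11.01 FPKM in Cd28 KO replicate 3 and 34.8 and 7.77 FPKM in WT replicate 3, against at most 1.61 and 2.50 FPKM in the other libraries. They were the 2 of 16 at least 2-fold higher in replicate 3 of both genotypes, as were 2.32% of all tested genes. The list did not move as a whole, with a median replicate 3 difference of -0.01 in Cd28 KO and 0.12 in WT. Stat2 (-1.37 in Cd28 KO and -0.86 in WT) and Irf3 (-0.83 and -1.345) were among those lower in replicate 3 on the log2(FPKM + 1) scale.

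Pf4 (Entrez 56744, chromosome 5, 90772435 to 90773383) had the largest genotype difference among the tested members in the fit on all 6 libraries. It stood at 16.1, 13.2 and 20.7 FPKM in Cd28 KO and at 11.1, 8.40 and 17.1 FPKM in WT. Within each replicate number the Cd28 KO library was the higher, by 1.45, 1.57 and 1.21 times, but WT replicate 3 exceeded Cd28 KO replicates 1 and 2. Pf4 averaged 16.6 ± 3.78 FPKM in Cd28 KO and 12.2 ± 4.43 FPKM in WT (SD, n = 3 each). The log2 difference was 0.45 ± 0.27 (SE), with a 95% interval of -0.18 to 1.08 and a limma adjusted p of 0.9995. With the replicate block the interval was 0.20 to 0.70, at a limma adjusted p of 0.29 (unadjusted 0.0029). The difference was 0.23 without WT replicate 2, where Cxcl10 (0.37) exceeded it, 0.29 with Cd28 KO replicate 3 dropped and 0.70 with WT replicate 3 dropped. Pf4 and Cxcl10 were the 2 of 6 tested members that were higher in Cd28 KO within all 3 replicate numbers, as were 15.0% of all tested genes. They were also the 2 with an unadjusted p below 0.05 in the blocked fit, as were 7.89% of all tested genes.

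Platelet and megakaryocyte markers were set beside Pf4, which platelets also carry. Summed over 8 markers, Cd28 KO libraries held 3.61 to 6.21 FPKM, against 2.94 to 7.00 FPKM in WT. Treml1, the highest of them, stood at 3.65, 2.58 and 5.17 FPKM in Cd28 KO and 3.10, 2.10 and 3.24 FPKM in WT, higher in Cd28 KO within each replicate number. Ppbp, the platelet chemokine gene next to Pf4, went the other way in its mean, with 0.39, 0.30 and 0.20 FPKM in Cd28 KO and 0.71, 0.20 and 1.16 FPKM in WT. Their part in the Pf4 values was not tested.

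**Figure D4:**
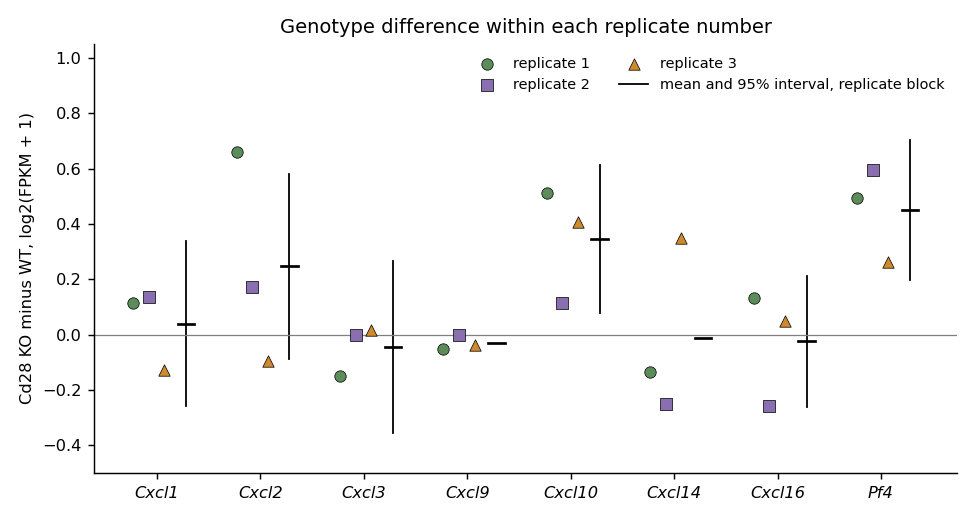
Cd28 KO minus WT on the log2(FPKM + 1) scale for each listed CXC chemokine, 1 point per replicate number, with the mean as a bar and, for the 6 tested members, the 95% interval of the limma fit with the replicate block. All 3 points lie above 0 for Cxcl10 (0.11 to 0.51) and Pf4 (0.26 to 0.59), and on both sides of 0 for Cxcl1, Cxcl2, Cxcl3, Cxcl14 and Cxcl16.

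Cxcl16 (Entrez 66102, chromosome 11, 70454389 to 70459984) was the most abundant member in every library and the least variable of those expressed. It stood at 157, 124 and 149 FPKM in Cd28 KO and at 144, 149 and 144 FPKM in WT. Cxcl16 averaged 144 ± 17.1 FPKM in Cd28 KO and 145 ± 3.06 FPKM in WT (SD, n = 3 each), a difference smaller than the spread within either group. The log2 difference was -0.02 ± 0.11 (SE), with a 95% interval of -0.28 to 0.24 and a limma adjusted p of 0.9995, and it was 0.07 without Cd28 KO replicate 2, the lowest library. Its RefSeq span overlaps that of Zmynd15 by 552 bases, and Zmynd15 was listed at 16.7 to 18.5 FPKM in Cd28 KO and 17.4 to 17.9 FPKM in WT, so a small share of reads could belong to either gene. Adam10 and Adam17, the proteases known to release Cxcl16 from the cell surface, stood at 25.1 to 28.2 and 50.8 to 56.7 FPKM in Cd28 KO, against 24.1 to 34.5 and 52.1 to 57.4 FPKM in WT.

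Cxcl14 (Entrez 57266, chromosome 13, 56288643 to 56296811) was near the lower end, at 0.34, 0.47 and 1.71 FPKM in Cd28 KO and 0.47, 0.75 and 1.13 FPKM in WT. It was highest in replicate 3 of each genotype, lower in Cd28 KO in replicates 1 and 2 and higher in replicate 3. Its mean fell short of the filter, and the exact two-sided permutation p was 1.0 (n = 3 each). Cxcl13 (Entrez 55985, chromosome 5, 95956939 to 95961068) was listed at 0 in all 6 libraries.

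Summed over the 9 members, CXC chemokine levels came to 190, 153 and 328 FPKM in Cd28 KO and 166, 172 and 325 FPKM in WT. Cxcl16 made up 83.0%, 81.2% and 45.3% of that sum in Cd28 KO and 86.7%, 86.7% and 44.3% in WT. The ELR members made up 1.93%, 2.24% and 42.6% in Cd28 KO and 1.26%, 1.67% and 46.2% in WT, so their share differed far more between replicate 3 and the rest than between genotypes. In replicates 1 and 2 Cxcl16 was followed by Pf4 and Cxcl10, in that order except in WT replicate 2, and then by Cxcl2. In replicate 3 of both genotypes the order was Cxcl16, Cxcl2, Cxcl1, Pf4, Cxcl10 and Cxcl3. Over all libraries Pf4 and Cxcl10 are neighbours whose levels overlap, while Cxcl16 exceeded each other member in every library. Cxcl2 stood at 3.90 and 3.80 times Cxcl1 in the Cd28 KO and WT replicate 3 libraries, and at 7.57 to 10.96 times in the other 4, where Cxcl1 was below 0.4 FPKM.

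**Figure D5:**
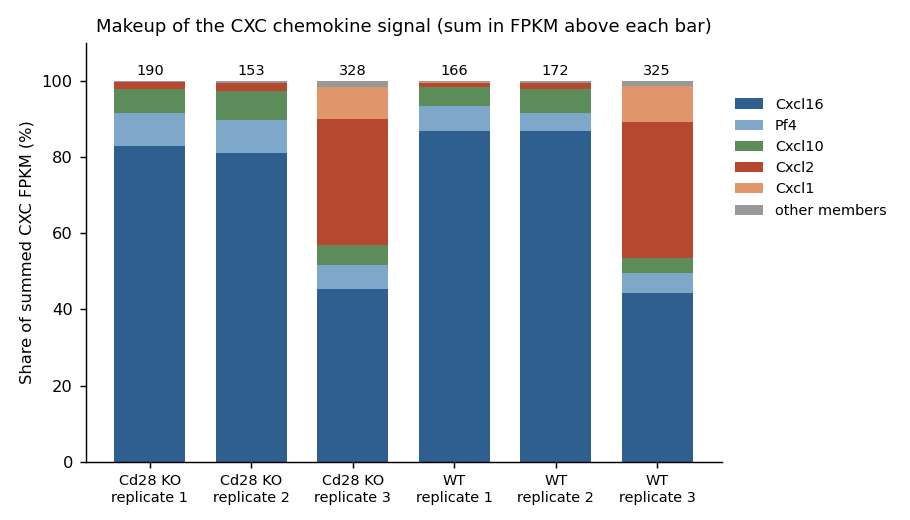
Share of the summed CXC chemokine FPKM held by each member in each library, Cd28 KO left of WT, with the sum in FPKM above each bar. Cxcl16 holds 81.2% to 86.7% in replicates 1 and 2 and about 45% in replicate 3, where Cxcl2 and Cxcl1 take most of the rest.

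The receptors of these ligands were mostly low, with the exception of Cxcr4, whose ligand Cxcl12 did not exceed 0.25 FPKM. Of 8 receptors 2 were tested, and limma called 0 higher and 0 lower, beside 0.0197% of all tested genes called. At an unadjusted limma p below 0.05 there were 0 of the 2, beside 2.49% of all tested genes. In the blocked fit there was 1, beside 7.89%. Cxcr4 stood at 196, 191 and 253 FPKM in Cd28 KO and at 153, 137 and 236 FPKM in WT, higher in Cd28 KO within each replicate number and overlapping between groups (log2 difference 0.31 ± 0.22, SE, limma adjusted p = 0.9995). Cxcr3, the receptor of Cxcl9, Cxcl10 and in some cells Pf4, stood at 4.33, 5.83 and 6.73 FPKM in Cd28 KO and 5.54, 4.80 and 4.94 FPKM in WT. Cxcr2, the receptor of the ELR members, did not exceed 0.82 FPKM, and Cxcr5 and Cxcr6, the receptors of Cxcl13 and Cxcl16, did not exceed 0.12 FPKM. Among the 6 other CXC ligands 0 passed the filter, and Ppbp was the highest.

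Proteases that process CXC chemokines were called in neither direction by limma, with 5 of 9 tested, beside 0.0197% of all tested genes called. All 5 were negative in sign, where 49.1% of all tested genes were positive. At an unadjusted limma p below 0.05 there were 0 of the 5, beside 2.49% of all tested genes. In the blocked fit there were 2, beside 7.89%. Mmp12, the macrophage elastase, which trims ELR chemokines, had both the highest level and the smallest p. It stood at 125, 117 and 168 FPKM in Cd28 KO and at 183, 230 and 147 FPKM in WT, lower in Cd28 KO in replicates 1 and 2 and higher in replicate 3 (log2 difference -0.44 ± 0.20, SE, limma adjusted p = 0.9995).

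The genes whose profiles over the 6 libraries were most like those of each tested member were found by the root mean square (RMS) difference of profiles scaled to mean 0 and SD 1. For Cxcl1 these were Smad6 and Per2 (RMS 0.026 and 0.033), for Cxcl2 Mdm2 and Mxd1 (0.050 and 0.054), and for Cxcl3 Rgcc and Smad7 (0.028 and 0.030). All 6 share the step between replicate 3 and the rest, as with Smad6 at 0.10, 0.07 and 30.6 FPKM in Cd28 KO and 0.07, 0.07 and 30.9 FPKM in WT. That step makes many profiles alike, and 48, 29 and 49 tested genes lay within 0.1 of Cxcl1, Cxcl2 and Cxcl3. For Cxcl10 the closest were Ddx50 and Rab33b (0.15 and 0.17), for Cxcl16 Pole4 and Prmt1 (0.13 and 0.27), and for Pf4 Lamp2 and Ctla2b (0.10 and 0.10). No tested gene lay within 0.1 of Cxcl10 or Cxcl16, nor of Pf4. No relation between the genes is drawn from these likenesses over 6 libraries.

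Markers of other cells that marrow cultures could hold were low throughout. Summed levels were 3.86 to 5.95 FPKM in Cd28 KO and 3.10 to 5.85 FPKM in WT for 7 dendritic cell markers, led by Ccr7, and they were 0.73 to 0.85 FPKM in Cd28 KO and 0.39 to 0.66 FPKM in WT for 9 stromal markers, led by Acta2, with Lum at 0. For 5 B cell markers, led by Cd79b, they were 0.67 to 1.14 FPKM in Cd28 KO and 0.73 to 1.22 FPKM in WT. For 6 T cell markers they were 3.88 to 6.91 FPKM in Cd28 KO and 4.40 to 7.20 FPKM in WT, most of it from Cd4, while Cd3d was at 0 in all libraries.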

How the data were processed

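The 6 libraries were grouped by their titles into Cd28 KO and WT. FPKM values, 1 per gene, were deposited by the authors for each of them. The submitters' processing notes name Bowtie, RSEM and the build GRCm38, with versions not given in the sources. RSEM divides reads between similar genes by estimation. Only genes above 0 are listed, down to 0.01 FPKM, and a gene missing from a file was counted as 0. Of 14574 Entrez identifiers, 14551 matched RefSeq for GRCm38, which gave symbols and coordinates. FPKM carries no read number, so no count test was made and depth sets an unstated limit on low values.

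The 10172 genes whose mean reached 1 FPKM were tested with limma 3.58.1 in R 4.3.3 on log2(FPKM + 1), empirical Bayes with trend, no block, all 6 libraries, two-sided, Benjamini-Hochberg over all tested genes. Log2 differences are on that scale, which understates changes of low genes. Members under the filter and Cd28 were compared by exact permutation of mean FPKM. The fits were also run on simulated data, but the outcome is not given here, so the power of the fits is left unstated. Deviations from group means correlated at 0.752, 0.505 and 0.783 for replicates 1, 2 and 3 of the 2 genotypes. Each exceeds 0.1, and on that ground the numbers were used as pairs in the blocked fit and the comparisons within replicate numbers. The main fit used no pairs, and no label says what the numbers mark. Cd28 KO replicate 2 correlated more with WT replicate 1 (0.535), and Cd28 KO replicate 1 correlated with WT replicate 2 at 0.663. The cutoff therefore cannot show that replicates 1 and 2 are paired by number.

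The members and gene lists were chosen with earlier results of these data known. Named beside the members were Cd28, in each pathway list the highest gene, the one of smallest p and those without overlap (at most 4), the highest marker of each other cell type, and the 2 genes most like each tested member. Further genes, among them other markers, receptors, Socs1, Socs3 and the NF-kB genes of replicate 3, were named after their values were seen. Promoter windows are from RefSeq (GRCm38.p6) and transcripts from GENCODE M21. Tables and exact tests were made with SciPy 1.17.1, NumPy 2.4.6 and pandas 2.3.3 under Python 3.11.15, and plots with Matplotlib 3.10.9. The value of 1 marker gene is not reported here.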

Additional observations from a re-analysis of the deposited data

How the results depend on the processing

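No CXC chemokine was called by limma under any alternative run. These were a pseudocount of 0.1, no filter, a minimum mean of 5 FPKM, TPM scaling, median centring, quantile normalization, the replicate block, each library left out in turn, and both replicate 3 libraries left out. The count of called genes, 2 as reported, was 5 without the filter, 18 with the replicate block and 96 without both replicate 3 libraries. It was 2 to 3 with 1 library left out. Cxcl10 and Pf4 stayed positive in all 14 alternatives each, at 0.18 to 0.48 and 0.23 to 0.70 on the log2 scale. The changes of filter and the replicate block cannot alter these differences, so those alternatives were bound to be positive. The lowest limma adjusted p values were 0.33 for Cxcl10 and 0.11 for Pf4, both without the replicate 3 libraries. The median over the 9 members, 0.00 as reported, was also 0.00 without both replicate 3 libraries. Leaving out 1 library moved it between -0.054 and 0.48. Each such run gives replicate 3, with its high ELR values, unequal weight in the genotypes. In the same alternatives Cxcl1 ranged from -1.44 to 1.60 (-0.74 without WT replicate 1 or WT replicate 2), Cxcl2 from -1.33 to 1.99 (-0.72 and -0.54), Cxcl3 from -0.75 to 0.63 (-0.38 to 0.34, with 0.27 without Cd28 KO replicate 2, where its mean stays above the filter) and Cxcl16 from -0.094 to 0.074. Cxcl3 could not be tested at a minimum mean of 5 FPKM, nor could Cxcl1 and Cxcl3 without both replicate 3 libraries, nor Cxcl3 without either of them. The Cd28 difference ranged from -19.1 to -8.56 FPKM with 1 library left out. Both chosen after seeing the data, plain FPKM ratios in place of log2(FPKM + 1) gave 6 in place of 4 NF-kB genes at least 2-fold higher in replicate 3, and TPM scaling moved the Cxcl1 ratios of replicate 3 to 76.4 in Cd28 KO and 139 in WT.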
